A study of Mus musculus with 9 samples.

Results

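Control ventricle was compared with control right atrium in adult mice, gene by gene, to describe how the chambers of a normal heart differ. The series holds 9 Affymetrix mouse arrays, and the 6 used here are the 3 titled as control ventricles and the 3 titled as control atria, which the source label gives as right atria. Of the 45101 probe sets on an array, 34945 are assigned to a single gene, and each of the 18193 genes was read from its brightest probe set on average over the 9 arrays. All 6 control samples carried the genotype COUP-TFIIflox/flox on a C57BL/6 background at 2 months of age, so both chambers come from mice with floxed alleles of Nr2f2, the gene of the nuclear receptor COUP-TFII, and no Cre is named in their genotype. The 3 other arrays are right atria of Myh6-cre; COUP-TFIIflox/flox mice of the same age and background, in which the Myh6 promoter drives Cre in heart muscle; they entered the fit for its estimate of spread and are not described. The titles call the replicates biological, the labels name neither the number of animals behind a sample nor their sex, and the ventricle label does not separate left, right and septum. The p-values therefore measure the spread between these samples.

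Atria and ventricles are built from the same types of cell but do different work. Atrial muscle contracts early and weakly, relaxes fast, houses the pacemaker and stores natriuretic peptides in granules, while ventricular muscle generates pressure on a steady supply of fat and oxygen. The muscle of each chamber uses its own isoforms of the myosin light chains and of several channels, and a small set of transcription factors, with Irx4 on the ventricular side and COUP-TFII and Tbx5 on the atrial side, is known to keep the programmes apart. Around the muscle lie capillary, endocardial and venous endothelium, smooth muscle, fibroblasts, macrophages, nerves and the mesothelium that covers the heart.

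The arrays were close in median intensity, at 80.9 to 83.4 over the 6 control arrays, but their quartiles differed by chamber. The lower quartile was 27.1 to 28.3 in atria and 29.8 to 30.2 in ventricles. The upper quartile was 328.5 to 343.2 in atria and 303.1 to 308.0 in ventricles. The part of this difference in the calls was not tested. Pearson correlations over all genes were 0.9953 to 0.9957 among ventricle arrays, 0.9941 to 0.9965 among atrium arrays and 0.9575 to 0.966 between chambers. The atrium arrays stood apart from each other in transcripts that no chamber comparison is about. Albumin (Alb), made by liver cells, read 12.25, 10.81 and 8.73 on the log2 scale on atrium arrays 1 to 3 and 5.03, 5.02 and 5.38 on the ventricle arrays, and the Y-linked Eif2s3y read 6.35, 9.97 and 9.53 against 3.82, 3.69 and 3.67. Xist, the RNA of the inactive X chromosome, read 12.73, 8.55 and 10.91 in atria and 11.84, 11.87 and 11.80 in ventricles. The 3 ventricle arrays thus showed no Y-linked signal above background and the atrium arrays showed a mixture, so sex and chamber cannot be fully told apart. For this reason list counts were repeated without atrium arrays 1 and 2, which carried the highest albumin, and without arrays 2 and 3, which carried the highest Y-linked signal. Each of these leaves 1 atrium array, whose spread is assumed to be like that of the other groups. The Gapdh probe sets gave a 3' minus 5' difference of 0.345 to 0.364 (log2) in atria and 0.153 to 0.227 in ventricles, and those of Actb 1.389 to 1.486 against 1.263 to 1.367; the part of RNA integrity in the results was not tested.

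The chambers differed widely. With limma and Benjamini-Hochberg adjustment at 0.05, 9615 genes passed, 52.8% of those tested, with 5314 higher in ventricle (29.2%) and 4301 lower (23.6%). The ratio leans on the scaling: with the arrays centred on their medians, which shifts the median of all genes by 0.14, 74.1% of the called genes were higher in ventricle, against 55.3% with the authors' normalisation. Most differences were small, since the called genes had a median absolute log2 difference of 0.44 and all genes a median difference of 0.07. A change of at least 2-fold was found for 420 genes higher in ventricle (2.31%) and 878 lower (4.83%), and one of at least 4-fold for 90 and 259 genes. The large differences therefore lay mostly on the atrial side. Counts of gene lists below are read against these shares of all genes, because a list with 29.2% of its members higher is at the level of the array as a whole.

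**Figure D1:**
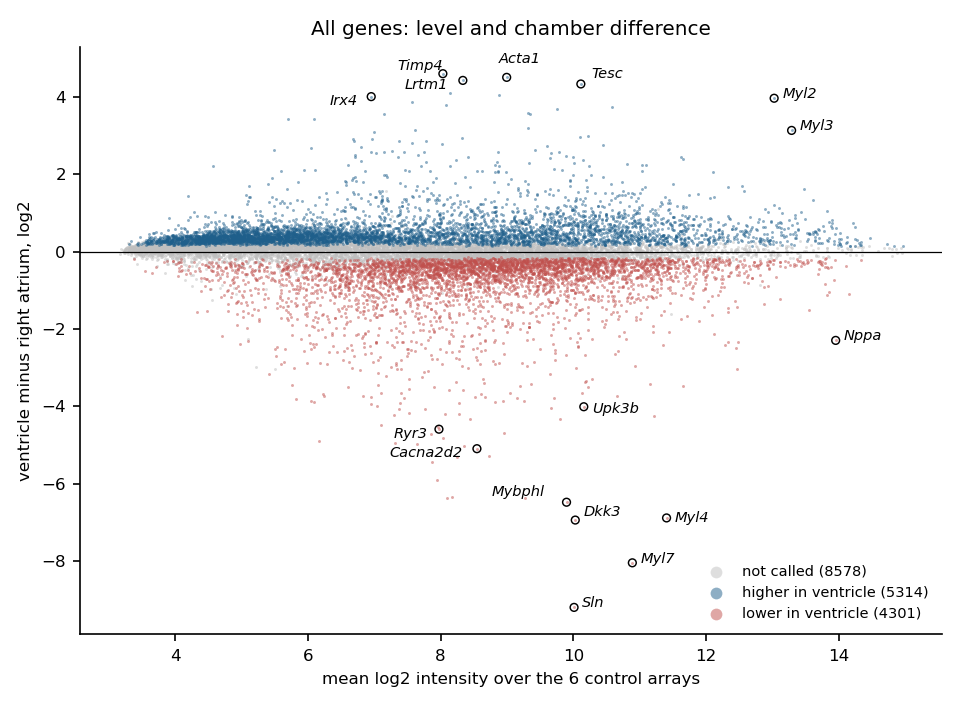
Each point is 1 of 18193 genes, with its mean log2 intensity over the 6 control arrays on the horizontal axis and its ventricle minus right atrium log2 difference on the vertical axis; genes past adjusted p 0.05 are blue (5314 higher in ventricle) or red (4301 lower), the others grey, and 16 genes named in the text are circled. Differences reached -9.20 (Sln) on the atrial side and 4.60 (Timp4) on the ventricular side.

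Levels are called near background where a group's mean is at or below 5.82 on the log2 scale, the 95th percentile of 39 olfactory receptor genes, and near the top where it lies within 1 unit of the brightest gene at 15.11. For a gene near background in the dimmer chamber the fold is taken against that level and given as "at least". The same wording is used for a gene near the top in the brighter chamber, where the array's range may hold it down. Of 5133 genes near background in both chambers, 1636 were called higher and 188 lower, against 3678 and 4113 of the 13060 others, so the lean towards ventricle in the total rests on dim genes. The dim genes also draw down the 23.6% of all genes that were lower, which is therefore a low mark for lists of brighter genes. Differences are ventricle minus atrium on the log2 scale with limma's standard error after ±, and intervals are 95% intervals.

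The 5 chamber markers bore out the labels on every array. Sarcolipin (Sln), a small inhibitor of the sarcoplasmic reticulum calcium pump, read 14.62, 14.62 and 14.59 in the atria and 6.71, 4.59 and 4.94 in the ventricles, at least 361.5-fold lower (log2 difference -9.20 ± 0.50 SE, adjusted p = 8.96e-07). The atrial regulatory light chain Myl7 read 14.95, 14.90 and 14.89 against 8.36, 6.16 and 6.08, at least 264.5-fold lower (-8.05 ± 0.57, adjusted p = 4.33e-06). Ventricle array 1 was the highest of its group for both, by more than 1 log2 unit, and still lay far below each atrium array. Dkk3, a secreted protein of the Dickkopf family, read 13.41, 13.61 and 13.48 against 6.53, 6.50 and 6.64, 122.9-fold lower in ventricle with little spread (-6.94 ± 0.12, adjusted p = 2.77e-09). On the ventricular side the regulatory light chain Myl2 read 15.01, 14.998 and 15.02 in ventricles and 10.50, 11.66 and 10.97 in atria, at least 15.6-fold higher (3.97 ± 0.23, adjusted p = 1.16e-06). Irx4, a homeobox transcription factor of ventricular muscle, read 9.16, 8.89 and 8.82 against 4.74, 5.06 and 5.05, where all 3 atria were near background, at least 8.83-fold higher (4.01 ± 0.24, adjusted p = 1.46e-06). Myl2 was well above background in the atria and spread over more than 1 unit there, whereas Irx4 was not.

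The light chain genes can be set beside the sequence at their transcription starts, since an atrial and a ventricular member moved in opposite directions. Myl7 is a regulatory and Myl3 an essential chain, so the pair shown are not counterparts of each other. The windows of Myl7 (chr11:5898733-5899032, minus strand) and of the ventricular essential light chain Myl3 (chr9:110763428-110763727, plus strand), from RefSeq on GRCm38.p6, hold 250 bases before and 50 after the start. Both are given 5' to 3' with capitals marking the CArG box, the known binding element of serum response factor, which ends 51 bases before the start in Myl7 and 75 in Myl3.
Myl7: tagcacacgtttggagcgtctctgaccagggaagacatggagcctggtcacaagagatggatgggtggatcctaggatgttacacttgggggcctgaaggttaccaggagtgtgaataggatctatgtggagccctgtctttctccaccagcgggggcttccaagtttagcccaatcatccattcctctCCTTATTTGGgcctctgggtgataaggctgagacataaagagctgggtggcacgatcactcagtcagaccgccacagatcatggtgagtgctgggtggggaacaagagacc
Myl3: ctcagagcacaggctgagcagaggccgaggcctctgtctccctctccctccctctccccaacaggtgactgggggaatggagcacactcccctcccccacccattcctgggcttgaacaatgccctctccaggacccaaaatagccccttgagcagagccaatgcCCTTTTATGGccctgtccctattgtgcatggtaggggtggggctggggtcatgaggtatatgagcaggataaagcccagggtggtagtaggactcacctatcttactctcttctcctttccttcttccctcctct
Both strands were searched for the start element TATAAA (in 13.6% of 32851 such windows), the nuclear receptor motif AGGTCA (16.3%), the GATA motif AGATAA (11.2%), the T-box motif AGGTGT (13.7%), a MEF2 site (3.19%) and the CArG box, which can overlap with the MEF2 site in runs of A and T, and neither window held any of the other 5. A CArG box was in 1.63% of all these windows. It was in 7 of the 260 windows of genes at least 4-fold lower in ventricle (2.69%) and in 5 of the 98 windows of genes at least 4-fold higher (5.1%). These small counts take in the Myl7 and Myl3 windows shown. Shares in the lower and higher sets were 13.5% and 17.3% for TATAAA, 14.2% and 17.3% for AGGTCA and 10.4% and 10.2% for AGATAA. They were 13.1% and 15.3% for AGGTGT and 2.31% and 4.08% for the MEF2 site. Differences between shares were not tested. The windows of Myl4, the atrial counterpart of Myl3, and of Mybphl, Irx4 and Timp4, searched in the same way, held no CArG box. The window of Myl2, the ventricular counterpart of Myl7, is not described here. Of the 5 markers, 3 are in the table of windows.

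Beyond the markers, the 12 largest differences on the atrial side held 2 further sarcomere genes, Myl4 and Mybphl, with Tmem163, Hamp, Mlana and Fgf12 and the liver transcripts Serpina1c, Alb and Ttr. Hamp, the gene of hepcidin, the peptide that limits iron export from cells, read 12.54, 12.26 and 12.54 in atria and 6.47, 5.51 and 6.28 in ventricles (-6.36 ± 0.43, adjusted p = 3.27e-06). It was even across the atria, unlike albumin. Mlana, known from pigment cells, read 11.57, 11.29 and 11.18 against 5.26, 4.90 and 4.85, and Tmem163, a zinc transporter of vesicle membranes, 11.24, 11.44 and 11.15 against 4.51, 4.76 and 5.47. The 12 largest on the ventricular side were Timp4, Acta1, Lrtm1, Tesc, Scube2, Myot, Irx4, Myl2, Mpped2, Gpr22, Rpl3l and 2310002L09Rik. Tesc, the gene of the calcium-binding protein tescalcin, read 12.27, 12.28 and 12.30 in ventricles and 7.68, 8.22 and 7.94 in atria (4.33 ± 0.13, adjusted p = 5.04e-08). Rpl3l, the muscle copy of ribosomal protein Rpl3, read 12.45, 12.50 and 12.43 against 8.63, 8.74 and 8.76 (3.75 ± 0.12). Gpr22, an orphan receptor of heart muscle, read 9.96, 10.05 and 9.94 against 6.25, 6.36 and 5.96. The 12 largest each way were drawn only from genes without overlap between the groups, so their separation follows from the choice.

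The large contractile differences lay in a few isoforms. Of 23 measured genes of the thick filament, 11 were higher and 7 lower in ventricle (list median 0.15 against 0.07 for all genes), and 5 of the lower and 5 of the higher changed at least 2-fold. The atrial essential light chain Myl4 read 14.86, 14.86 and 14.82 in atria and 9.04, 6.52 and 8.32 in ventricles, at least 118.3-fold lower (-6.89 ± 0.49, adjusted p = 4.68e-06). Its ventricular counterpart Myl3 read 14.83, 14.86 and 14.88 in ventricles and 11.86, 11.78 and 11.53 in atria, at least 8.78-fold higher (3.13 ± 0.096, adjusted p = 5.15e-08). Mybphl, a short relative of myosin binding protein C, read 13.10, 13.15 and 13.16 against 6.67, 6.73 and 6.57 (-6.48 ± 0.23). Myl1, the essential light chain of fast skeletal muscle, was also lower in ventricle, at 11.16, 10.79 and 12.01 against 13.50, 13.92 and 13.56. Among the heavy chains, Myh7, the slow cardiac myosin, read 11.01, 10.57 and 11.64 in ventricles and 8.50, 8.44 and 8.55 in atria (2.58 ± 0.22, adjusted p = 1.27e-05), and its relative Myh7b 8.83, 9.06 and 9.20 against 6.68, 6.32 and 6.37. Myh6, the main adult mouse heavy chain, read 14.88, 14.95 and 14.95 against 14.96, 14.99 and 14.96, a difference of -0.043 (95% interval -0.17 to 0.079) that did not pass, though the probe set is near the top in both chambers. Ttn, the giant spring protein titin, differed by -0.077 (-0.24 to 0.082), and by 0.24 higher in ventricle when its 6 probe sets were averaged.

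**Figure D2:**
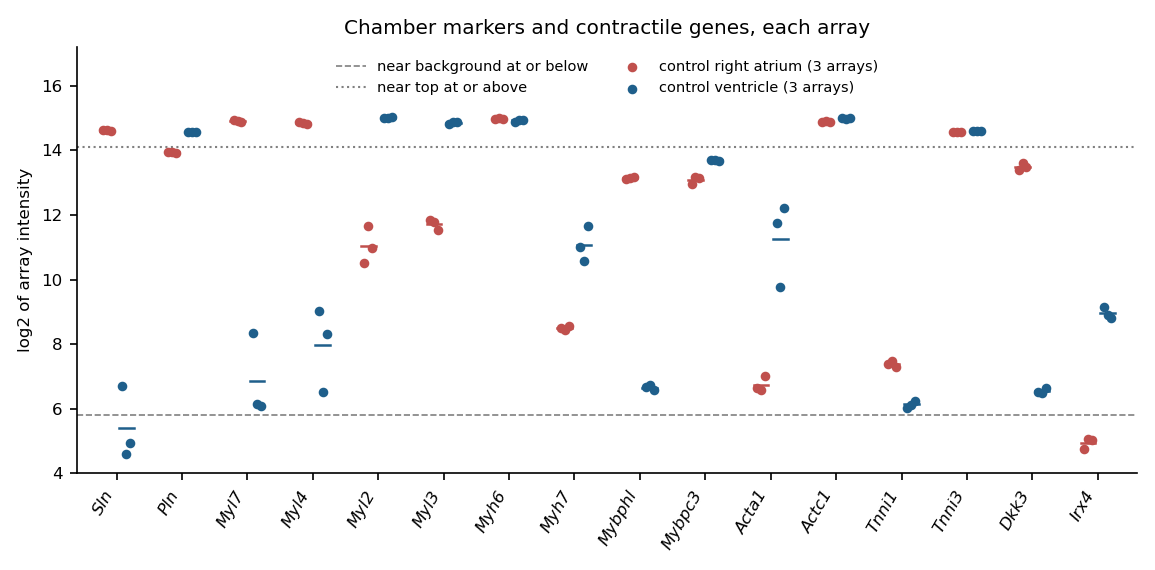
Points are the log2 intensity on each of the 3 control right atrium (red) and 3 control ventricle (blue) arrays, short lines the group means, the dashed line the near-background level (5.82) and the dotted line the near-top level (14.11). Sln, Myl7, Myl4, Mybphl and Dkk3 separate towards the atria and Myl2, Myl3, Myh7, Acta1 and Irx4 towards the ventricles, while Myh6, Actc1 and Tnni3 lie close together near the top.

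On the thin filament, 8 of 22 measured genes were higher and 6 lower (median 0.099); without atrium arrays 1 and 2 the higher count fell to 4, and with median centring it was 14. Skeletal alpha-actin, Acta1, read 11.76, 9.77 and 12.21 in ventricles and 6.63, 6.57 and 7.03 in atria (4.51 ± 0.55, adjusted p = 0.000144), so ventricle array 2 was low and still above every atrium. Cardiac alpha-actin, Actc1, read 15.01, 14.97 and 15.01 against 14.89, 14.90 and 14.88, a difference of 0.10 (-0.018 to 0.22) that did not pass. Lmod3 and Tmod4, which cap or lengthen actin filaments, were higher in ventricle by 2.21 ± 0.14 and 1.06 ± 0.16. Lower were Tpm2, a tropomyosin, at 9.99, 9.72 and 10.47 against 11.70, 11.91 and 11.87, and Tnni1, slow skeletal troponin I, at 6.04, 6.12 and 6.25 against 7.38, 7.49 and 7.29 (-1.25 ± 0.18, adjusted p = 0.000368). Tpm3 was lower (-0.71 ± 0.066), but its 5 probe sets disagree and their mean did not pass (adjusted p = 0.175). The cardiac troponins did not pass: Tnni3 differed by 0.022 (-0.094 to 0.14) and Tnnt2 by 0.061 (-0.062 to 0.18), with both near the top. Actc1, Tnni3 and Tnnt2 passed as higher in ventricle with median centring, at adjusted p = 0.0044, 0.0274 and 0.0111. Close copies such as Acta1 and Actc1 or Myh6 and Myh7 may share probes, which was not tested.

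The Z-disc and stretch list had 13 of 30 genes higher and 7 lower (median 0.19); the higher count fell to 5 without atrium arrays 1 and 2 and to 8 without 2 and 3. Myotilin, Myot, which cross-links actin at the Z-disc, read 10.87, 10.67 and 11.17 in ventricles and 6.86, 6.96 and 6.78 in atria (4.04 ± 0.43, adjusted p = 5.45e-05). Cavin4 and Cav3, both proteins of muscle caveolae, were higher by 1.83 ± 0.17 and 0.88 ± 0.06, and Fhl2, a LIM protein that binds titin, was at least 3.08-fold higher. Ankrd1, a stretch-responsive titin-binding protein, was lower, at 13.42, 13.25 and 13.44 against 14.18, 14.24 and 14.20, and the LIM protein Pdlim3 was lower (-2.25 ± 0.31) with a wide spread in ventricle (8.98, 8.53 and 9.97).

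Calcium handling differed in specific proteins. Of 32 genes of calcium cycling, 8 were higher and 9 lower in ventricle, close to the shares of all genes (median 0.028), and the higher count rose to 14 with median centring. The inhibitors of the calcium pump differed in direction: where Sln was lower in ventricle, phospholamban, Pln, read 14.56, 14.57 and 14.56 in ventricles and 13.94, 13.96 and 13.91 in atria, at least 1.55-fold higher (0.63 ± 0.055, adjusted p = 1.63e-05). The pump itself, Atp2a2, differed by -0.036 (-0.15 to 0.081), with no call and a level near the top; the sign turned with median centring (0.10), again with no call. Ryr3, a ryanodine receptor best known from brain and developing muscle, read 10.32, 10.25 and 10.24 in atria and 5.74, 5.66 and 5.64 in ventricles, at least 21.9-fold lower (-4.59 ± 0.22, adjusted p = 4.14e-07), with all 3 of its probe sets lower. Ryr2, the cardiac release channel, read 13.10, 13.31 and 13.21 against 13.10, 13.34 and 13.25, a difference of 0.025 (-0.16 to 0.21). At the junction between membrane and reticulum, Jph2 was higher by 0.70 ± 0.081 and the counter-ion channel Tmem38a by 0.93 ± 0.066, while Fkbp1b, a ryanodine receptor partner, was lower (-0.84 ± 0.072). The calcium store protein Casq2 differed by 0.25 (0.016 to 0.48) without passing.

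All 13 measured calcium channel genes passed, 8 higher and 5 lower (median 0.41); the higher count was 5 without atrium arrays 1 and 2. The lower ones were the T-type channels, Cacna1d and a pair of auxiliary subunits. Cacna1h, a T-type channel, read 9.92, 10.65 and 10.13 in atria and 5.24, 5.82 and 6.04 in ventricles, at least 20.2-fold lower (-4.53 ± 0.24, adjusted p = 8.64e-07). Cacna1d, the L-type channel of the sinus node and atrium, read 7.45, 7.74 and 7.67 against 4.73, 4.73 and 4.73, at least 3.5-fold lower (-2.89 ± 0.10, adjusted p = 9.77e-08). Cacna1c, the main L-type channel of working muscle, went the other way, with 10.71, 11.05 and 10.76 in ventricles and 9.26, 9.41 and 9.25 in atria (1.54 ± 0.13, adjusted p = 1.15e-05). The auxiliary subunits split likewise: Cacna2d2 read 10.97, 11.22 and 11.10 in atria and 6.34, 5.72 and 5.94 in ventricles (-5.10 ± 0.21), Cacna2d3 was at least 1.66-fold lower, and Cacna2d1 was higher by 0.90 ± 0.088. Of the 3 probe sets of Cacna2d2, 1 was called lower and 1 higher, and their mean difference was -1.60. Cacna1g, another T-type channel, was lower (-0.37 ± 0.12) with overlapping groups, and it did not pass without atrium array 2 or 3 or ventricle array 1 or 2 (adjusted p from 0.0622 to 0.102).

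**Figure D3:**
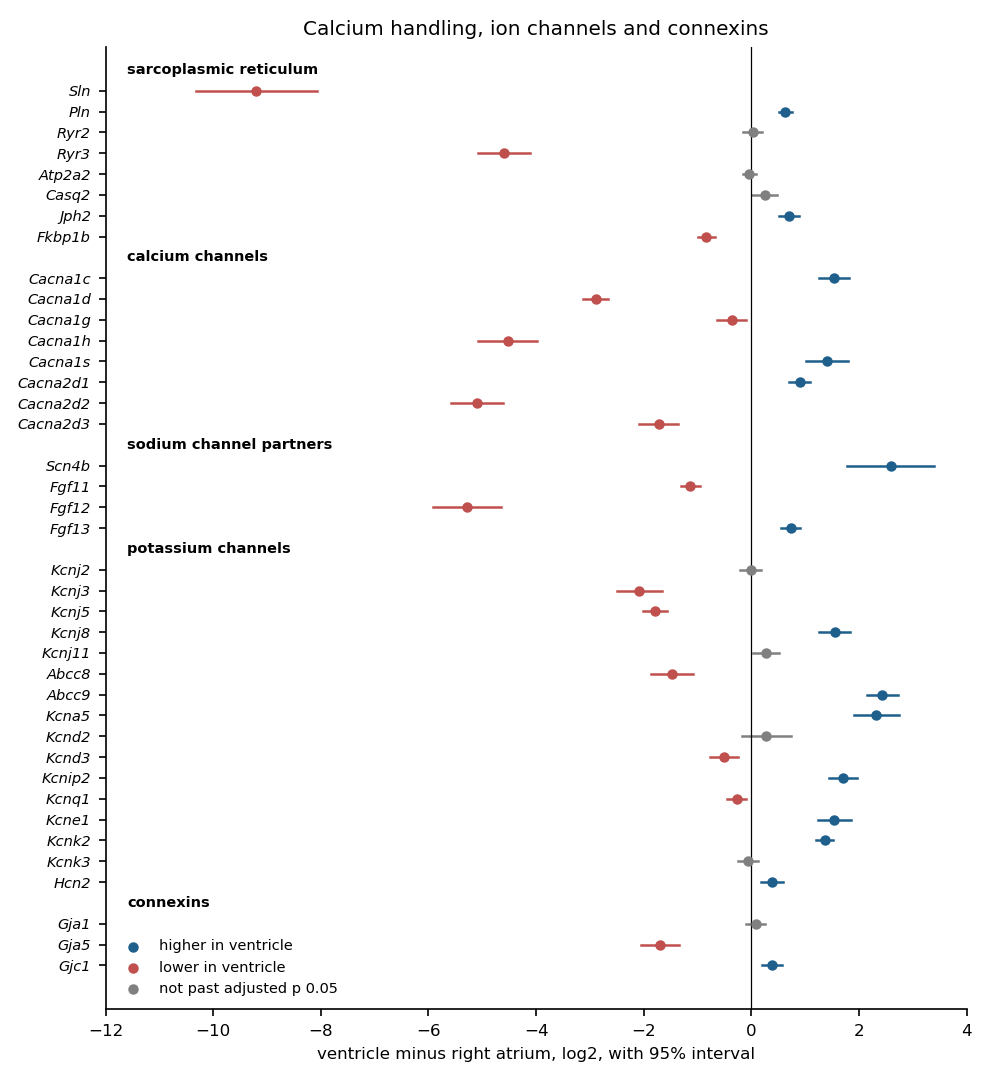
Points are ventricle minus right atrium differences in log2 with limma's 95% intervals for genes of calcium handling, ion channels and connexins; blue is higher in ventricle, red lower and grey not past adjusted p 0.05. Within a family the signs differ, as for Sln (-9.20) and Pln (0.63), Cacna1h (-4.53) and Cacna1c (1.54), or Abcc8 (-1.48) and Abcc9 (2.44).

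Among 12 genes of sodium channels and their partners, 5 were higher and 4 lower (median 0.22). Near background in both chambers were 4 of the 12, and 2 of the higher calls were among these. The strongest difference lay in the FGF homologous factors, intracellular proteins that set sodium channel inactivation. Fgf12 read 11.44, 11.40 and 11.26 in atria and 6.30, 6.07 and 5.87 in ventricles, 38.9-fold lower with all 3 of its probe sets lower (-5.28 ± 0.28, adjusted p = 8.55e-07). Fgf13, the main member in mouse ventricle, read 11.58, 11.81 and 11.69 against 10.99, 10.94 and 10.97 (0.73 ± 0.075, adjusted p = 4.83e-05). The subunit Scn4b was higher in ventricle but uneven there, at 9.24, 7.44 and 8.61 against 5.66, 6.04 and 5.84 (2.59 ± 0.36, adjusted p = 0.000313).

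Potassium channel genes were higher in ventricle more often than lower, 21 against 10 of 44 (median 0.27); without atrium arrays 1 and 2 the counts were 12 and 5, and with a Y-linked covariate 6 were lower. Of the 44 genes, 11 were near background in both chambers, among them 5 of the higher and none of the lower calls. Kcnj3 and Kcnj5, which together form the acetylcholine-gated channel that slows atrial and nodal cells, were lower. Kcnj3 read 12.38, 12.67 and 12.41 in atria and 10.88, 10.22 and 10.12 in ventricles (-2.08 ± 0.19, adjusted p = 2.03e-05) and Kcnj5 11.25, 11.40 and 11.31 against 9.47, 9.61 and 9.53 (-1.78 ± 0.099, adjusted p = 9.96e-07). The repolarising genes Kcna5 and Kcnip2 were higher, with Kcna5 at 9.70, 10.06 and 10.27 in ventricles and 7.81, 7.89 and 7.39 in atria (2.32 ± 0.19, adjusted p = 9.71e-06) and Kcnip2, the partner of the transient outward channels, at 10.92, 10.76 and 10.74 against 9.02, 9.13 and 9.16. For the channels themselves, Kcnd2 differed by 0.28 (-0.17 to 0.73) without passing. Kcnd3 was lower (-0.51 ± 0.12), a call that rests on 1 of its 4 probe sets, with an adjusted p of 0.609 for their mean.

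The subunits of the ATP-sensitive potassium channel differed in direction. Abcc8, a sulphonylurea receptor of pancreas and atrium, read 10.88, 10.74 and 11.01 in atria and 9.23, 9.70 and 9.26 in ventricles (-1.48 ± 0.17, adjusted p = 9.89e-05). Abcc9, the receptor of ventricle and of vascular muscle, read 12.78, 12.93 and 12.80 in ventricles and 10.50, 10.37 and 10.34 in atria (2.44 ± 0.13, adjusted p = 7.34e-07). Of the pores, Kcnj8 was higher in ventricle by 1.55 ± 0.13, and Kcnj11 differed by 0.27 (0.025 to 0.51) without passing. Abcc9 and Kcnj8 are also markers of pericytes and belong to the smooth muscle and pericyte list. With both counted, 18 of its 24 genes were higher in ventricle. Its summed intensities, to which Abcc9 and Kcnj8 contribute, were 39967 to 45435 against 21638 to 23692 in atria. Members such as Des, Synpo2 and Casq1 are also in the contractile lists. The part of pericytes in the differences of Abcc9 and Kcnj8 was not tested. The stretch-gated Kcnk2 and the accessory subunit Kcne1 were near background in atria and higher in ventricle, at least 1.31-fold and 2.6-fold. Kcnq1, the channel that Kcne1 modifies, was lower (-0.28 ± 0.08, adjusted p = 0.0166), a call lost with median centring (0.152), quantile normalisation (0.0988) and without ventricle array 3 (0.0549). Kcnk3 differed by -0.067 (-0.25 to 0.11), and Kcnj2 was near background in both chambers.

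Cell contacts changed modestly. Of 25 genes of connexins and the intercalated disc, 13 were higher and 9 lower (median 0.22), none of the higher ones by 2-fold; the higher count fell to 8 without atrium arrays 2 and 3. Gja5, the fast connexin of atrium and conduction system, read 6.85, 6.71 and 6.21 in atria and 4.92, 5.02 and 4.73 in ventricles, at least 1.71-fold lower (-1.70 ± 0.16, adjusted p = 2.41e-05). Gja1, the connexin of working muscle, differed by 0.08 (-0.092 to 0.25) and did not pass. The desmosomal cadherins Dsc2 and Dsg2 were lower (-1.20 ± 0.08 and -0.70 ± 0.062), while the desmosomal plaque gene Pkp2 was higher by 0.57 ± 0.072. Popdc2, a cyclic AMP-binding membrane protein, was higher by 0.77 ± 0.072.

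The sinus node and conduction list held 12 of 22 genes lower and 5 higher in ventricle (median -0.41), with 8 of the lower and all 5 of the higher at least 2-fold. Shox2, a sinus node transcription factor, read 8.18, 7.79 and 7.83 in atria and 6.02, 5.65 and 5.41 in ventricles, at least 4.14-fold lower (-2.24 ± 0.15, adjusted p = 3.27e-06). Id2, an inhibitor of helix-loop-helix factors, read 11.82, 11.52 and 11.30 against 8.58, 8.53 and 8.51 (-3.01 ± 0.12), and the calcium-binding Cpne5 9.72, 10.31 and 9.66 against 7.12, 6.97 and 7.42. Rgs6, which quickens the end of the acetylcholine response, was lower (-1.48 ± 0.14). Hcn2, a pacemaker channel counted with the potassium channels, was slightly higher in ventricle (0.38 ± 0.089, adjusted p = 0.00606). Tbx3, which shapes the conduction system, was higher as well, at 7.99, 7.77 and 8.03 against 6.84, 7.14 and 6.59; its 5 probe sets gave a mean difference of 0.43.

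Of 40 genes of autonomic receptors and cyclic nucleotides, 19 were lower and 10 higher (median -0.26); without atrium arrays 1 and 2 the lower count was 12. The G protein subunit Gnao1, which acts downstream of muscarinic receptors, read 11.09, 11.17 and 11.31 in atria and 7.23, 6.81 and 7.92 in ventricles (-3.87 ± 0.24, adjusted p = 1.95e-06); 1 of its 3 probe sets was called lower and none higher. Rgs7 and Pde9a, a phosphodiesterase that degrades cyclic GMP, were lower (-2.14 ± 0.13 and -1.63 ± 0.094), as was the protein kinase A subunit Prkar2b, at least 3.3-fold. On the other side, the adenylyl cyclase Adcy9 read 9.74, 10.05 and 9.86 in ventricles and 8.18, 8.23 and 7.995 in atria (1.75 ± 0.094, adjusted p = 8.3e-07) with all 4 of its probe sets higher. Rgs5, a regulator of G protein signals and marker of pericytes, was higher by 2.05 ± 0.14. Adrb1, Adra1a and Chrm2 have no probe set in the table used.

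Genes of fuel oxidation were higher in ventricle across most of their lists. In fatty acid uptake and oxidation 36 of 44 measured genes were higher and 4 lower (median 0.75 against 0.07 for all genes), 16 of them by at least 2-fold. Plin5, which tethers lipid droplets to mitochondria, read 11.55, 11.55 and 11.65 in ventricles and 8.51, 8.80 and 8.58 in atria (2.95 ± 0.12, adjusted p = 2.01e-07). Eci1, which prepares unsaturated fatty acids for oxidation, read 13.20, 13.17 and 13.10 against 11.45, 11.53 and 11.48, and Hadha, the alpha subunit of the mitochondrial trifunctional protein, 12.75, 12.82 and 12.90 against 11.25, 11.53 and 11.47 (1.41 ± 0.093, adjusted p = 2.75e-06). The fatty acid transporter Cd36 was higher by 1.04 ± 0.092, the thioesterase Acot2 by 1.51 ± 0.089 and malonyl-CoA decarboxylase, Mlycd, by 1.17 ± 0.078. The exceptions were Fabp5, Acsl4, Acsl5 and Cpt1a, of which all but Acsl5 are named after their values were seen. Acsl5, an acyl-CoA synthetase, read 9.73, 9.68 and 9.70 in atria and 8.95, 8.85 and 8.95 in ventricles. Cpt1b, the muscle form of the entry enzyme, has no probe set in the table used.

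In the tricarboxylic acid cycle and pyruvate list 25 of 27 genes were higher and none lower (median 0.56), although only 2 reached 2-fold. These were Suclg2, a subunit of succinyl-CoA ligase, at 12.0004, 12.19 and 12.07 in ventricles against 10.78, 10.89 and 10.84 in atria (1.25 ± 0.068, adjusted p = 9.06e-07), and mitochondrial isocitrate dehydrogenase Idh2, at 13.66, 13.69 and 13.67 against 12.53, 12.49 and 12.59 (1.14 ± 0.077); the mean of the Idh2 probe sets differed by 0.74, under 2-fold. Pdk4, the kinase that shuts the pyruvate dehydrogenase complex, did not pass (0.14, interval -0.36 to 0.65), while the complex genes Dld, Pdhx and Dlat were higher by 0.83, 0.82 and 0.69. In the respiratory chain and ATP synthase 52 of 65 genes were higher and 3 lower (median 0.32), and none reached 2-fold. The higher count was 41 with quantile normalisation and 62 with median centring. The measured shift was thus wide and shallow: Uqcrq of complex III was higher by 0.70 ± 0.067, Ndufs4 of complex I by 0.70 ± 0.063 and the heart isoform Cox8b of complex IV by 0.67 ± 0.057. The list is bright, with mean log2 levels of 13.242 to 13.290 in atria and 13.575 to 13.585 in ventricles. The array's range may hold such differences down, which was not tested. The oxidation of ketones and branched-chain amino acids had 19 of 21 genes higher (median 0.83) and Ppm1k lower, a call lost without ventricle array 1 or 3. Oxct1, the enzyme that commits ketone bodies to oxidation, read 13.93, 13.87 and 13.92 against 13.04, 13.07 and 13.11 (0.83 ± 0.075, adjusted p = 2.04e-05), and Hibch and Bckdha of valine and branched-chain oxidation were higher by 1.45 ± 0.079 and 1.33 ± 0.10. Bdh1, which interconverts the ketone bodies and was chosen after its values were seen, was higher by 3.57 ± 0.52.

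Glucose genes followed in part. Of 30 genes of glycolysis, glycogen and glucose uptake 18 were higher and 5 lower (median 0.29); the lower count was 3 without atrium array 1, ventricle array 1 or ventricle array 3, and 2 with median centring. The insulin-responsive transporter Slc2a4 was higher by 0.92 ± 0.071 and hexokinase Hk2 by 1.18 ± 0.078, and muscle enolase Eno3 was at least 1.68-fold higher. Phkg1, a catalytic subunit of phosphorylase kinase, was lower instead, at 7.16, 7.26 and 7.29 in ventricles against 9.64, 9.85 and 9.76 in atria (-2.51 ± 0.13, adjusted p = 7.33e-07). In creatine and energy sensing 9 of 21 genes were higher and 2 lower (median 0.085). The creatine transporter Slc6a8 was higher by 1.09 ± 0.075 and the cytosolic creatine kinase Ckm by 0.81 ± 0.079, and the mitochondrial kinase Ckmt2 was at least 2.06-fold higher. Prkag2, a regulatory subunit of AMP-activated kinase, was lower, at 8.29, 8.34 and 8.15 against 10.40, 10.29 and 10.36 (-2.09 ± 0.086, adjusted p = 2.16e-07). The other lower gene, Prkaa1, named after its values were seen, lost its call without any of atrium arrays 1 and 2 and ventricle arrays 1 and 3.

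Regulators of mitochondrial genes leaned the same way, with 14 of 21 higher and 1 lower, Nrip1, named after its values were seen (median 0.35); without ventricle array 3 the lower count was 2. The nuclear receptor Ppara, which switches on fatty acid oxidation, read 10.30, 10.26 and 10.36 in ventricles and 9.32, 9.39 and 9.57 in atria (0.88 ± 0.096, adjusted p = 6.77e-05). Its partner receptor Rxrg was higher by 1.49 ± 0.077, Pparg by 1.38 ± 0.096 and the muscle coregulator Perm1 by 1.30 ± 0.093. The coactivator Ppargc1b was higher by 1.22 ± 0.15, whereas Ppargc1a differed by 0.33 (-0.11 to 0.77) and did not pass.

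**Figure D4:**
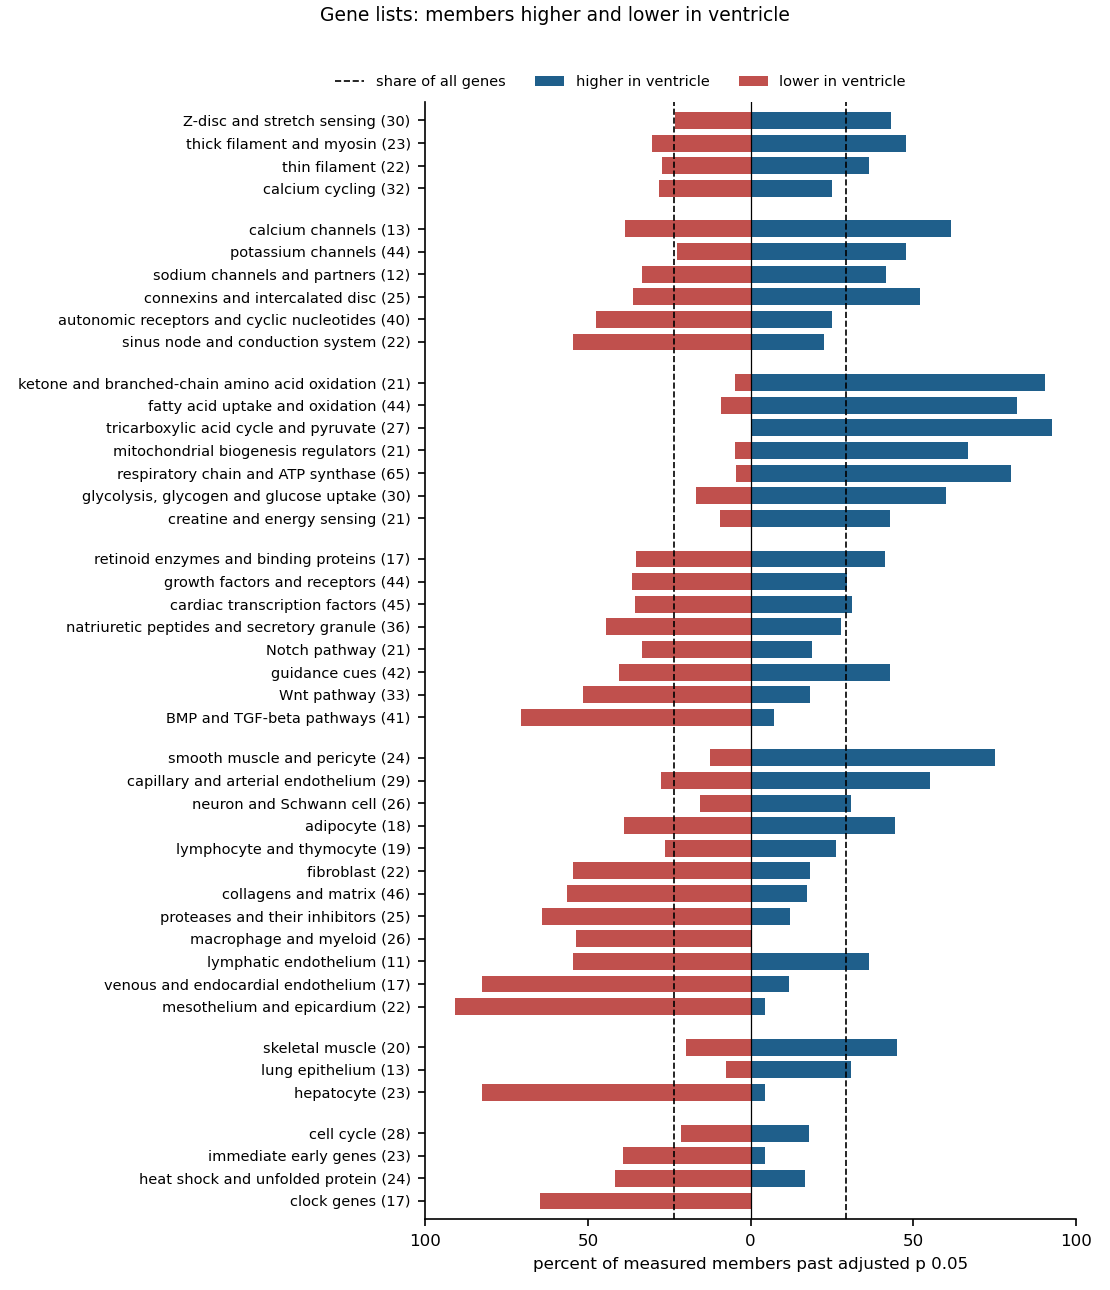
Bars give, for each gene list with its number of measured genes in brackets, the percent of members past adjusted p 0.05 and higher (blue, right) or lower (red, left) in ventricle, and dashed lines the shares of all genes, 29.2% higher and 23.6% lower. Metabolic lists extend to the right, up to 92.6% for the tricarboxylic acid cycle, and the mesothelium (90.9%) and venous and endocardial lists (82.4%) to the left.

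The larger differences among hormone genes lay on the atrial side. Of 36 genes of natriuretic peptides and secretory granules 16 were lower and 10 higher in ventricle (median -0.047), 9 of the lower and 1 of the higher by at least 2-fold; the higher count fell to 2 without atrium arrays 1 and 2 and rose to 17 with median centring. Nppa, atrial natriuretic peptide, read 15.11, 15.09 and 15.11 in atria and 12.82, 12.49 and 13.10 in ventricles, at least 4.91-fold lower (-2.30 ± 0.13, adjusted p = 9.27e-07). Pam, the amidating enzyme abundant in atrial granule membranes, read 13.60, 13.62 and 13.87 against 10.95, 11.69 and 10.96 (-2.50 ± 0.19). Nppb, brain natriuretic peptide, was lower (-0.91 ± 0.23, adjusted p = 0.00922), but not with a Y-linked covariate (0.129) or without atrium arrays 1 and 2 (0.107) or 2 and 3 (0.0986). Adm, the vasodilator adrenomedullin, read 10.83, 11.23 and 10.74 against 7.28, 7.47 and 7.60 (-3.49 ± 0.16), and the clearance receptor Npr3 12.10, 11.93 and 11.83 against 7.83, 7.56 and 7.51 (-4.32 ± 0.16, adjusted p = 1.16e-07). Npr3 is also a marker of endocardium, whose list is given with the endothelium. Of the 36 genes, 10 were near background in both chambers, 3 of them called higher.

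Transcription factors divided nearly evenly, with 14 of 45 higher and 16 lower (median -0.029) and 7 and 10 of them by at least 2-fold; the higher count was 9 without atrium arrays 2 and 3. Irx1 to Irx5 of the Iroquois family were higher in ventricle. Besides Irx4, Irx1 read 7.93, 7.50 and 7.50 in ventricles and 5.70, 5.90 and 5.82 in atria, Irx2 8.20, 7.85 and 8.66 against 5.78, 5.79 and 5.43, Irx3 10.70, 10.19 and 10.55 against 8.21, 8.11 and 8.27 and Irx5 8.52, 7.72 and 8.36 against 7.11, 7.03 and 6.98. Every ventricle array lay above every atrium array for all 5, with adjusted p by limma between 1.46e-06 for Irx4 and 0.00173 for Irx5. Such separation, in either direction, was found for 10867 of all 18193 genes. Irx6, named after its values were seen, was near background in both chambers (5.25, 5.07 and 5.41 against 4.91, 4.96 and 5.02, adjusted p = 0.0342). Lbh, a cofactor of limb and heart development, read 11.34, 11.23 and 10.79 against 7.58, 7.25 and 7.74 (3.59 ± 0.21, adjusted p = 1.37e-06), and Hand2 was higher by 0.65 ± 0.12, which missed the threshold without atrium arrays 2 and 3 (adjusted p = 0.0514).

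On the atrial side stood Nr2f2, Nr2f1, Tbx5 and Tbx20. Nr2f2 also belongs to the venous and endocardial list given with the endothelium. The part of those cells in its difference was not tested. Nr2f2, the gene floxed in these mice, read 7.53, 7.66 and 7.29 in atria and 5.96, 5.34 and 5.74 in ventricles, at least 3.09-fold lower (-1.81 ± 0.15, adjusted p = 1.34e-05), with 5 of its 6 probe sets lower. Its paralogue Nr2f1 read 9.69, 9.81 and 9.52 against 6.90, 6.79 and 6.97 (-2.79 ± 0.16, adjusted p = 1.46e-06). Tbx5, which drives atrial and conduction genes, read 11.28, 11.39 and 11.21 against 8.78, 8.85 and 8.89 (-2.45 ± 0.09, adjusted p = 1.13e-07), and Tbx20 was lower (-0.93 ± 0.095). Foxp1 was lower on all 8 of its probe sets (-1.43 ± 0.08), and Foxc1, known from endothelium and mesenchyme, was lower too (-2.92 ± 0.14). The general cardiac factors Nkx2-5 and Mef2c differed by -0.013 (-0.19 to 0.17) and -0.029 (-0.20 to 0.14) without passing, and both signs turned with median centring (0.12 and 0.11). Gata6 was lower (-0.44 ± 0.086), but its 3 probe sets point both ways and their mean did not pass (adjusted p = 0.125). Gata4 sat at the threshold (0.19 ± 0.073, adjusted p = 0.0492), and among single left-out arrays it passed only without atrium array 2 (otherwise adjusted p from 0.0618 to 0.15). Hey2 was near background in both chambers.

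Genes of retinoid handling, 7 higher and 6 lower of 17 (median 0.11), showed no lean; the higher count was 3 without atrium arrays 1 and 2. Of the enzymes that make retinoic acid, Aldh1a2 read 9.94, 9.46 and 10.01 in atria and 7.93, 7.49 and 7.90 in ventricles (-2.03 ± 0.23, adjusted p = 8.93e-05) and Aldh1a1 was lower (-1.65 ± 0.15). Cyp26b1, which breaks retinoic acid down, was higher in ventricle, at 7.11, 7.23 and 7.43 against 6.25, 6.06 and 6.15 (1.10 ± 0.099, adjusted p = 1.98e-05). Aldh1a2 is also expressed by mesothelium. Of the 17 genes, 4 were near background in both chambers, 3 of them called higher. The retinol carrier Rbp4 read 10.36, 10.003 and 8.62 in atria and 6.35, 6.20 and 5.91 in ventricles and, like albumin, was highest on atrium array 1 and lowest on array 3.

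BMP and TGF-beta genes were the signalling list with the most members on the atrial side: 29 of 41 were lower in ventricle and 3 higher (median -0.67), 15 of them by at least 2-fold. Among ligands, Bmp10, a factor of atrial and trabecular muscle, read 10.01, 9.87 and 9.84 in atria and 6.61, 6.31 and 6.08 in ventricles (-3.57 ± 0.30, adjusted p = 1.42e-05), and Bmp6, of venous endothelium, was lower (-1.40 ± 0.099). The receptor Acvr1 read 10.92, 10.87 and 10.72 against 9.30, 9.25 and 9.05 (-1.64 ± 0.083, adjusted p = 6.02e-07), and the co-receptors Eng and Tgfbr3 were lower (-1.78 ± 0.13 and -0.91 ± 0.06). Averaging their probe sets gave -0.87 for Acvr1 and -0.42 for Tgfbr3. The feedback inhibitors Smad6 and Smad7, which are themselves targets of the pathway, read 11.23, 11.23 and 11.21 against 8.75, 8.69 and 9.20 (-2.34 ± 0.13) and 10.48, 10.36 and 10.36 against 8.65, 8.78 and 9.06 (-1.58 ± 0.099). Ligands, receptors and targets were all among the lower genes, while the 3 higher genes, Bmp7, Smad9 and Grem1, named after their values were seen, each changed by less than 2-fold.

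Of 33 Wnt pathway genes 17 were lower and 6 higher in ventricle (median -0.40); 11 were higher with median centring and 2 with a Y-linked covariate. Secreted regulators led beside Dkk3: Sfrp5, which binds Wnt ligands, read 9.22, 8.99 and 9.80 in atria and 6.54, 6.49 and 6.66 in ventricles (-2.77 ± 0.20, adjusted p = 5.57e-06), and Rspo1, which strengthens Wnt signals, 9.05, 8.70 and 8.86 against 6.18, 5.67 and 5.64 (-3.04 ± 0.14). Frzb, another Wnt-binding protein, was lower (-1.23 ± 0.094). The receptor Fzd7 (-1.86 ± 0.075) and the feedback target Axin2 (-1.25 ± 0.086) were lower, each on 1 of 2 probe sets. Wif1, a Wnt inhibitor named after its values were seen, went the other way, at least 1.98-fold.

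Of 44 growth factors and receptors 13 were higher (29.5%, near the share of all genes) and 16 lower (36.4%, above it), 4 of the higher and 9 of the lower by at least 2-fold (median -0.017). Igf2 read 12.24, 12.58 and 12.75 in atria and 8.58, 8.78 and 9.01 in ventricles (-3.73 ± 0.21, adjusted p = 1.14e-06), and Igfbp5, a binding protein of the same axis, 13.42, 13.55 and 13.53 against 10.99, 11.01 and 11.25 (-2.42 ± 0.10). Angpt1, a ligand that steadies vessels, was lower (-1.63 ± 0.083). Fgf9 was higher by 1.05 ± 0.081, and the feedback inhibitor Spry1 by 0.76 ± 0.069. In the Notch pathway 7 of 21 genes were lower and 4 higher (median -0.052); the counts were 4 and 2 without atrium arrays 1 and 2, and 8 were higher with median centring. The receptor Notch1 (-1.02 ± 0.15) and the target Hey1 (-1.32 ± 0.17) were lower, while Notch3, the receptor of vascular smooth muscle, was higher by 0.80 ± 0.12. Guidance cues moved both ways, 18 higher and 17 lower of 42 (median -0.12). Epha3 read 8.43, 7.64 and 8.02 against 4.23, 4.10 and 4.09, at least 4.64-fold lower in ventricle, Slit3 (-2.51 ± 0.14) and Sema3d (-2.07 ± 0.14) were lower, and Efna5 was higher by 1.02 ± 0.065.

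Genes of the non-muscle cells differed as well. In bulk RNA a lower level of a cell type's genes can mean fewer such cells or less of the RNA in each, and these cannot be told apart. Mesothelium and epicardium had 20 of 22 genes lower in ventricle and 1 higher, with a median of -2.40. The summed intensity of the list was 19601 to 23251 in atria and 2905 to 3634 in ventricles. Upk3b, a uroplakin of mesothelial surface, read 12.16, 11.9996 and 12.33 in atria and 8.53, 7.83 and 8.09 in ventricles (-4.01 ± 0.17, adjusted p = 2.16e-07). The keratin Krt7 read 9.13, 9.35 and 9.20 against 5.56, 5.53 and 5.62, at least 10.6-fold lower, the transcription factor Bnc1 at least 10.7-fold, and Gpm6a 12.13, 11.80 and 11.96 against 8.68, 8.31 and 8.42 (-3.49 ± 0.16). The groups did not overlap for any of these, which also held for 10867 of all 18193 genes. Aldh1a2 and Rspo1, described above with other lists, belong to this list as well, and the part of the mesothelium in their differences was not tested.

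The endothelial lists leaned in opposite directions, though not in every member. Of the capillary and arterial list 16 of 29 genes were higher and 8 lower in ventricle (median 0.64), 10 and 5 of them by at least 2-fold. Of the venous and endocardial list 14 of 17 were lower and 2 higher (median -1.78). Summed intensities of the capillary and arterial list were 55861 to 59564 against 39647 to 40948 in atria. Those of the venous and endocardial list were 6115 to 6682 against 26458 to 28587. The capillary and arterial list includes Cd36 and Fabp4, which are also counted in the fatty acid list. Car4, carbonic anhydrase of capillary surface, read 9.23, 9.43 and 9.56 in ventricles and 6.42, 6.91 and 6.55 in atria (2.78 ± 0.20, adjusted p = 4.73e-06), Rgcc 10.78, 11.39 and 10.75 against 8.18, 8.43 and 8.14, and Gpihbp1, which carries lipoprotein lipase to the capillary wall, 11.16, 11.26 and 11.35 against 9.14, 9.36 and 9.36. Timp4, a metalloproteinase inhibitor, read 10.13, 10.44 and 10.44 against 5.26, 6.27 and 5.66, at least 20.6-fold higher (4.60 ± 0.24, adjusted p = 6.57e-07). In the opposite direction, Plvap, of fenestrated and venous endothelium, read 11.56, 11.51 and 11.73 in atria and 7.94, 7.78 and 7.75 in ventricles (-3.77 ± 0.15, adjusted p = 2.11e-07) and von Willebrand factor, Vwf, 12.53, 12.38 and 12.33 against 9.50, 9.47 and 9.37 (-2.97 ± 0.16). Emcn, an endothelial sialomucin of the capillary list, was lower (-1.69 ± 0.15). The 2 venous genes that were higher, Ackr1 and Hapln1, are named after their values were seen; the count was 1 without atrium array 1 or 3 or ventricle array 1 or 2. Lymphatic genes went both ways, 6 lower and 4 higher of 11 (median -0.91): Lyve1 was lower (-1.59 ± 0.20) and Mmrn1 at least 4.96-fold higher.

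**Figure D5:**
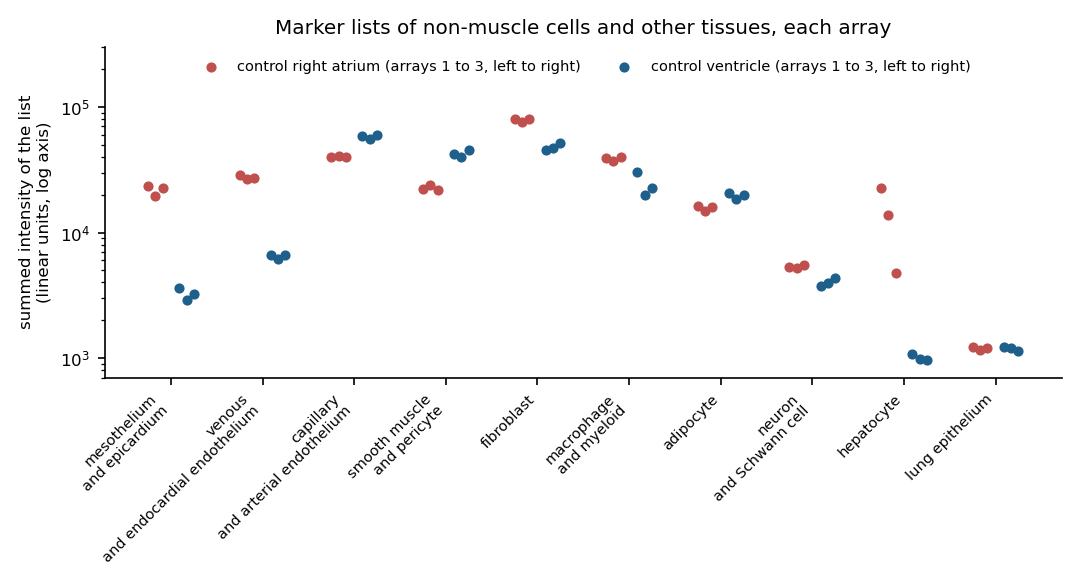
Points give, per array, the summed linear intensity of all measured genes of a marker list, on a log axis, for control right atrium (red, arrays 1 to 3 from left to right) and control ventricle (blue). Mesothelial, venous and endocardial sums are lower in ventricle (2905 to 3634 against 19601 to 23251 for mesothelium), capillary and mural cell sums are higher, and the hepatocyte sum spans 4801 to 22681 on the atrium arrays against 964 to 1075 in ventricles.

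Vascular smooth muscle and pericytes had 18 of 24 genes higher and 3 lower (median 0.75); the lower count was 1 without atrium arrays 1 and 2. Smooth muscle myosin, Myh11, read 8.53, 8.24 and 8.64 in ventricles and 7.13, 7.22 and 7.01 in atria (1.35 ± 0.11, adjusted p = 1.12e-05). Calponin, Cnn1, was the exception of size, at 9.18, 9.40 and 9.36 in atria and 6.27, 5.99 and 6.32 in ventricles (-3.12 ± 0.18, adjusted p = 1.13e-06).

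Genes of connective tissue were lower in ventricle more often than higher. Of 46 collagen and matrix genes 26 were lower in ventricle and 8 higher (median -0.40); the higher count was 4 or 5 without any of atrium arrays 1 and 2 and ventricle arrays 1 and 3. Comp, a cartilage and tendon matrix protein, read 10.25, 10.27 and 10.18 in atria and 6.66, 6.23 and 6.07 in ventricles (-3.91 ± 0.24, adjusted p = 1.78e-06), fibulin Fbln1 11.80, 11.69 and 11.85 against 9.44, 9.46 and 9.87, and the proteoglycan biglycan, Bgn, 12.65, 12.66 and 12.77 against 11.27, 11.12 and 11.37. Thbs4, a thrombospondin, was higher in ventricle by 1.12 ± 0.15. Proteases and their inhibitors had 16 of 25 genes lower and 3 higher (median -0.48): Timp2 (-1.33 ± 0.08) and Reck, a membrane-bound inhibitor (-1.42 ± 0.13), were lower, in contrast to Timp4. Of 22 fibroblast genes 12 were lower and 4 higher (median -0.33), with all 4 of the higher but 3 of the lower changed at least 2-fold. Their summed intensities were 45237 to 51293 in ventricles and 75169 to 80608 in atria, whereas their mean log2 levels overlapped, at 9.75, 9.80 and 9.97 in ventricles and 9.94 to 9.95 in atria. Tcf21, a fibroblast transcription factor, read 10.23, 10.06 and 10.18 in atria and 8.33, 8.25 and 8.39 in ventricles (-1.84 ± 0.14, adjusted p = 6.78e-06), Dpt was lower (-1.14 ± 0.10), and the scavenger receptor Scara5 higher by 2.08 ± 0.14, on 1 of 2 probe sets.

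Macrophage genes were lower in ventricle where they passed, 14 of 26 with none higher (median -0.50), and their summed intensity was 19966 to 30163 against 37247 to 39903 in atria; without atrium arrays 1 and 2 or 2 and 3 the counts were 8 and 7, and with a Y-linked covariate 7. Csf1r, the growth factor receptor of macrophages, read 11.94, 11.97 and 11.98 in atria and 11.10, 10.82 and 10.94 in ventricles (-1.004 ± 0.09, adjusted p = 1.89e-05), and Cd163, a haemoglobin scavenger, 10.11, 9.77 and 9.66 against 8.73, 8.16 and 8.59. Lymphocyte genes showed no lean, 5 higher and 5 lower of 19 (median -0.0096), with 12 of them near background in both chambers; without atrium array 1 or ventricle array 1 the higher count was 3, and without atrium array 1 or 3 the lower count was 1, or 2 without ventricle array 2 or 3. Nerve genes were 8 higher and 4 lower of 26 (median 0.18), the higher count being 5 without atrium array 1 or 2 and 16 with median centring. Of the 26, 11 were near background in both chambers, 3 of them called higher. Mbp, a myelin protein, was lower at 7.34, 7.58 and 7.62 against 9.67, 9.59 and 9.68 (-2.13 ± 0.12, or -0.74 for the mean of its probe sets), and Ret, a receptor of neurotrophic factors, was at least 2.53-fold higher. Fat cell genes were 8 higher and 7 lower of 18 (median -0.003): the desaturase Scd1 read 11.28, 10.59 and 11.10 in atria and 8.44, 8.39 and 8.50 in ventricles, Cidea, of lipid droplets, was higher by 1.46 ± 0.16, and Adipoq, the adipocyte hormone adiponectin, overlapped between chambers (7.49, 5.52 and 8.19 against 5.94, 4.86 and 4.55, adjusted p = 0.0247) and did not pass without atrium array 1 or 3 or ventricle array 2 or 3 (adjusted p from 0.0681 to 0.0824).

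Some lists stand for tissue outside the heart. Liver genes were lower in ventricle, 19 of 23 with 1 higher (median -2.86) and uneven among atria, with summed intensities of 22681, 13749 and 4801 on atrium arrays 1 to 3 against 964 to 1075 in ventricles. The higher gene, Pck1, named after its values were seen, lost its call without atrium array 1 or 2 or ventricle array 1 or 2. Alb differed by -5.45 ± 0.68 over all arrays and by -3.58 with atrium array 3 alone, while Ahsg was level over the atria at 9.39, 9.38 and 9.24. The part of liver tissue in other differences was not tested. Lung genes were 4 higher and 1 lower of 13 (median 0.14), none by 2-fold, and none passed without atrium arrays 1 and 2. Skeletal muscle genes were 9 higher and 4 lower of 20 (median 0.27), and 8 were near background in both chambers. The list shares Acta1, Myl1 and Ckm with the heart. Its members Tnnt3, Tnni2, Tnnc2, Myoz1, Atp2a1, Casq1 and Cacna1s are also counted in the contractile and calcium channel lists above. Of 5 red cell genes 1 passed, Slc4a1, which did not without atrium array 1 or ventricle array 2. Of the 5 sex-linked genes, Eif2s3y was lower and Tsix, near background in both chambers, higher; Kdm5d (-2.98 ± 1.22) and Uty (-3.05 ± 1.25), also Y-linked, did not pass over the 9 arrays (adjusted p = 0.0633 and 0.0653 by limma) but passed with the 6 control arrays alone (0.0199 and 0.0153), a replicate block (0.0159 and 0.0241) and array weights (0.0342 and 0.036). Without atrium array 1 the lower count was 3, with Kdm5d and Uty at adjusted p = 0.0208 and 0.0273. Eif2s3y passed again only without atrium array 1 among the single arrays, and Tsix did not pass without atrium array 1 or ventricle array 1 or 3.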

How the data were processed

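RNA of whole tissue, 3 samples per group, was hybridised to Affymetrix mouse arrays with biotin label from a 3' IVT kit, per the labels' protocols. The deposited values are linear intensities per probe set, made by the authors with RMA, per the submitters' processing notes; the software and its version are not given in the sources used here. RMA is meant to bring the arrays to a common distribution, which would largely remove a shift of all genes. The quartiles of the deposited values still differed between the chambers. Intensities were turned to log2 without a filter. Gene names came from the platform annotation; 64 control probe sets, 932 with several genes and 9160 unnamed ones were left out, and 0 symbols needed an update. Of 18193 genes, 9010 had several probe sets.

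The 9 arrays were fitted with limma 3.58.1 (lmFit, eBayes) in R 4.3.3, and ventricle was compared with right atrium, with Benjamini-Hochberg adjustment over all genes at 0.05 (6 residual and 3.48 prior degrees of freedom, median SE 0.088). On simulated data over 18193 genes it recovered 68 of 100 changes of 1.5-fold and 94 of 100 of 2-fold, with 8 false calls. The simulated noise was normal and independent between genes, and no other gene was changed. In the real comparison 52.8% of genes passed, so these figures do not give its recovery or its false calls. Precision is limited by 3 arrays per group.

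The 46 gene lists (1214 names, 1132 measured) and the key genes were chosen with earlier results of these data known. Named genes are the 12 largest each way that passed with at least 1 log2 unit and no overlap, up to 6 members per list with the smallest p-value, and 92 key genes (85 measured), 315 in all; others are marked as chosen later. Alternatives were other probe set rules, scalings, fits, thresholds and left-out arrays. Leaving out 2 atrium arrays together was added after seeing the data. Plots were drawn with matplotlib 3.10.9.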

Additional observations from a re-analysis of the deposited data

How the results depend on the processing

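The total of 9615 called genes stayed within 1.5 times of itself with array weights, an intensity trend with robust variance, the 6 control arrays alone, quantile normalisation and a Y-linked covariate (7415). Leaving out single arrays gave 7742 to 9282 calls, with 4050 to 5201 higher and 3692 to 4081 lower. Every probe set tested on its own gave 16492 calls of 34945, 8971 higher and 7521 lower. Median centring gave 8799 higher, the fit without the dimmest 40% of genes 2931 higher (43.0% of its calls), and an adjusted p of 0.01 gave 3282 higher. A minimum of 1.5-fold left 3165 genes, 1286 higher and 1879 lower. Without atrium arrays 1 and 2 there were 5000 calls, 2488 higher and 2512 lower, and without 2 and 3 there were 7439; both were chosen after seeing the data and leave 1 atrium array. Replicate numbers gave no clear sign of pairing. Deviations from the group means correlated at 0.060, 0.037 and 0.021 for same-numbered arrays and at -0.078 to 0.044 for the other pairs. With so few arrays per group this cannot exclude shared animals. The fit with a replicate block gave 9199 calls. Of 286 named genes that passed, 273 also passed with a Y-linked covariate, 282 with median centring, 280 with quantile normalisation, 279 with the mean of all probe sets, 279 to 283 without single arrays, and 261 and 267 with 2 atrium arrays left out. The Y-linked covariate was each array's mean of Kdm5d, Eif2s3y and Uty, so for these genes that fit is not a separate result. Among the named genes called in either fit, the sign turned for 4. With the Y-linked covariate Uty read 0.39 and Xist -2.86, and with the mean of all probe sets Egr3 read -0.11 and Ttn 0.24. Of these Egr3 alone had passed to begin with. Among genes called in neither fit signs also turned, with median centring for Atp2a2 (0.10), Myh6 (0.09), Nkx2-5 (0.12), Mef2c (0.11) and others. Averaging probe sets also shrank Cacna1h to -2.66, Cacna1d to -1.50, Ryr3 to -2.38, Gnao1 to -1.25, Shox2 to -1.38, Epha3 to -1.80, Kcnj5 to -1.14, Igfbp5 to -1.38, Fzd7 to -0.82, Axin2 to -0.51, Csf1r to -0.66, Rora to -0.47, Eif2s3y to -2.40, Mmrn1 to 1.43, Ret to 1.28, Scara5 to 1.10, Myh11 to 0.80, Perm1 to 0.68, Dld to 0.53 and Uqcrq to 0.44, and raised Fgf9 to 1.74. The causes were not tested. Depth has no counterpart on arrays, and genes near background in both chambers bear no fold.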

Other observations

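Of 17 clock genes 11 were lower in ventricle and none higher (median -0.44). The output factor Hlf read 9.23, 9.42 and 9.18 in atria and 7.86, 8.20 and 8.47 in ventricles (-1.10 ± 0.16, adjusted p = 0.000436 by limma), the repressor Cry2 8.29, 8.38 and 8.40 against 7.38, 7.33 and 7.42, and Nr1d1, which feeds back on the clock, 8.56, 8.90 and 8.84 against 7.84, 7.87 and 8.05. Of 9 probe sets of Rora, 7 were lower. The labels give no hour of collection.

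Of 23 immediate early genes 9 were lower and 1 higher (median -0.23). Egr1 read 9.67, 10.28 and 10.09 in atria and 8.96, 8.32 and 8.78 in ventricles and Socs3, a feedback inhibitor of cytokine signals, 9.30, 9.21 and 9.46 against 8.09, 8.28 and 8.13 (-1.16 ± 0.16, adjusted p = 0.000349 by limma). The lower count was 4 when atrium arrays 1 and 2, or 2 and 3, were left out. Of 24 heat shock and unfolded protein genes 10 were lower and 4 higher (median -0.31), and 2 were lower without atrium arrays 2 and 3. Hspb6, a small heat shock protein of muscle, was higher by 1.58 ± 0.17, and the chaperone Hsp90aa1 was lower (-0.76 ± 0.14). Without atrium arrays 2 and 3, Egr1 and Hsp90aa1 did not pass (adjusted p = 0.0649 and 0.0524 by limma). Of 28 cell cycle genes 5 were higher and 6 lower (median 0.014), 17.9% and 21.4%, both below the shares of all genes (29.2% and 23.6%). With median centring 11 were higher and 3 lower, and without atrium arrays 1 and 2 the counts were 1 and 2. Cenpf, a centromere protein, stood apart at 9.19, 9.68 and 8.69 in ventricles and 5.73, 6.28 and 6.13 in atria, with 2 of 3 probe sets higher, and averaging them gave 1.35.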
